A study of Mus musculus with 18 samples.

Results

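HetKO replicates 2 and 5 are a pair of mRNA-seq samples that stood apart from the other 4 samples of the same P19 line. They were set against HetKO replicates 1, 3, 4 and 6, and this division was itself chosen from the measured values of Fgf8 and Meg3, so every difference between the sides is given as a description by size and carries no p-value. The pair makes up 2 of the 6 HetKO samples and 2 of the 18 samples measured. Of 55450 genes in the table, 13654 averaged 1 TPM or more in the 6 HetKO samples and were compared. TPM gives the abundance of transcripts per unit of length, scaled to a fixed total in every sample, so the read depth behind a value is unknown.

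The study sequenced poly(A)-selected mRNA from 3 lines of P19, a mouse embryonal carcinoma line that grows as undifferentiated pluripotent cells, with 6 samples per line. WT cells carry Dicer (+/+). HetKO cells, Dicer (+/-), hold 1 allele truncated by CRISPR and 1 full-length allele, and HM cells, Dicer (HM/-), were made from HetKO cells by adding the E1797G hotspot mutation to the full-length allele. The edited lines are clonal, the labels name no treatment, and they do not say whether the 6 samples of a line came from separate cultures. P-values given for comparisons between lines therefore measure only the spread between these samples, which may be technical.

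Dicer1, the gene edited in both lines, did not separate the sides. Its level was 42.9 and 46.7 TPM in replicates 2 and 5 and 44.9 to 53.8 TPM in the other 4, with overlapping values, against 49.2 to 54.8 TPM in WT. The value per gene does not tell the truncated from the full-length allele. Markers of embryonal carcinoma cells were present in all 6 HetKO samples. Pou5f1, which encodes the pluripotency factor OCT4, lay at 2193 and 2244 TPM in replicates 2 and 5 and at 1814 to 2231 TPM in the others. Sox2 lay at 112.04 and 112.2 TPM against 104.8 to 120.05 TPM. Of the 5 embryonal carcinoma markers examined, which also included Lin28a and Utf1, Sall4, a zinc finger factor of pluripotent cells, differed most, at 69.5 and 67.8 TPM against 34.3 to 37.6 TPM. The number of genes at 1 TPM or more was 13164 and 13066 in replicates 2 and 5 and 13554 to 13769 in the others. Mitochondrial transcripts, not only mRNAs, made up 5.29% and 5.32% in the pair against 5.32% to 5.93%.

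Several signals that P19 cells can produce or answer act in the early embryo at gastrulation. WNT ligands stabilise β-catenin, which enters the nucleus with TCF/LEF factors and switches on genes such as Axin2, Sp5 and T. Nodal and FGF8 act with WNT in the primitive streak, where T and Eomes mark cells leaving the pluripotent epiblast. Among secreted antagonists, LEFTY1 limits Nodal, and follistatin limits activins and some BMPs. Genes of these pathways were among the leading transcripts on the higher side of the pair, and lysosomal, glutathione and FOXO-linked genes were among those on the lower side.

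The markers that define the pair showed the division in opposite directions. Fgf8 (ENSMUSG00000025219.13, GRCm38 chromosome 19 from 45736798 to 45742915, minus strand), a secreted growth factor of the streak, measured 60.4 TPM in replicate 2 and 55.3 TPM in replicate 5. It measured 2.11, 20.4, 2.28 and 27.3 TPM in replicates 1, 3, 4 and 6. The pair was the highest, replicates 3 and 6 were intermediate, and replicates 1 and 4 lay below the WT range of 3.70 to 10.5 TPM. Meg3 (ENSMUSG00000021268.17, chromosome 12 from 109541001 to 109571726, plus strand), a maternally expressed noncoding RNA of the imprinted Dlk1-Dio3 cluster, measured 79.1 and 52.8 TPM in replicates 2 and 5. It measured 206, 217, 213 and 196 TPM in replicates 1, 3, 4 and 6. All 6 were below the 252 to 297 TPM of WT, and in HM Meg3 was listed at 0 to 0.01 TPM. The differences between the means of log2(TPM + 1) on the sides were 2.73 for Fgf8 and -1.67 for Meg3.

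Over all genes compared, the difference is the mean log2(TPM + 1) of replicates 2 and 5 minus that of replicates 1, 3, 4 and 6, a scale that understates the change of genes with low TPM. A gene was called where the difference was at least 2-fold and no sample of one side overlapped the other. By this rule 856 genes were called, 6.27% of those compared, with 199 higher in the pair (1.46%) and 657 lower (4.81%). Counts of called genes within lists, given below, are to be read against these shares. The share of called genes that were higher was 23.2%, and it was 37.3% after centring each sample on its median (283 higher, 476 lower) and 45.3% after quantile normalization (288 higher, 348 lower). The centring moved the median over all genes from -0.08 to 0.03. The values of the call nearest the limit were 1.0002 just inside and 0.9993 just outside. A further 132 genes differed by 2-fold or more but overlapped.

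The pair was alike within itself. The median absolute difference between replicates 2 and 5 was 0.095 over all genes and 0.13 over the called genes, where the median absolute difference between the sides was 1.26. In all, 8088 genes (59.2%) did not overlap between the sides, 3262 higher and 4826 lower, and the middle 50% of all differences ran from -0.39 to 0.20. List counts without overlap, given below, are to be read against these numbers. Large differences sat mainly in genes of low to moderate level. Of genes with a mean of 1 to 5 TPM 10.4% were called (57 higher, 293 lower), and of those at 100 TPM or more 1.32% (9 higher, 11 lower). Of the called genes 27 of those higher had a mean under 1 TPM in the other 4 samples, and 202 of those lower had a mean under 1 TPM in the pair, so they passed the filter on level only through the side where they were high.

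**Figure D1:**
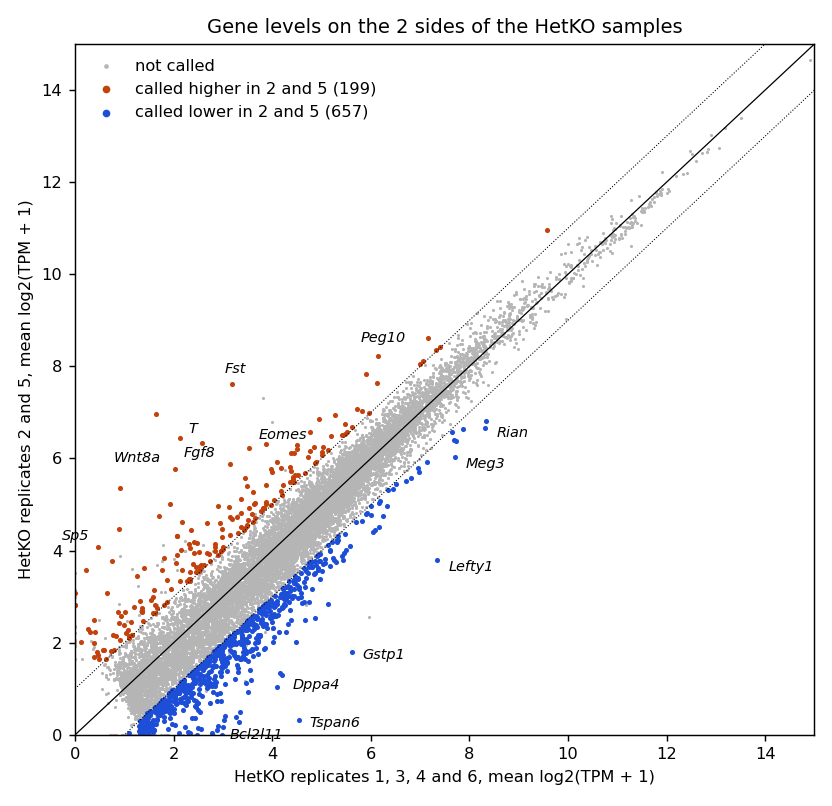
Each point is 1 of 13654 genes, with its mean log2(TPM + 1) in HetKO replicates 1, 3, 4 and 6 on the horizontal axis and in replicates 2 and 5 on the vertical axis. The solid line marks equal levels and the dotted lines a 2-fold difference. The 199 genes called higher (orange) and the 657 called lower (blue) lie mostly below 8 on both axes, and the genes of highest level stay near the solid line.

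Genes of WNT signalling led the higher side. Of 54 listed WNT ligands, receptors and feedback genes 36 passed the filter. Of these, 10 were called higher and 3 lower, against 1.46% and 4.81% of all genes. The median difference of the list was 0.24 against -0.08 over all genes. Wnt8a, a WNT ligand of the early streak, measured 62.8 and 46.0 TPM in replicates 2 and 5, and 1.26, 7.65, 0.68 and 7.25 TPM in replicates 1, 3, 4 and 6. WT samples had 1.5 to 2.98 TPM and HM samples 1.44 to 3.13 TPM, so the pair lay far above every WT and HM sample. Sp5, an SP-family transcription factor switched on by β-catenin, measured 19.8 and 12.8 TPM in the pair and 0.08, 0.82, 0.04 and 0.76 TPM in the others. The related Sp8 measured 7.96 and 6.96 TPM in the pair, and 0.21 to 1.29 TPM in the other 4. Neither factor reached 1 TPM in any WT sample.

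The same side held ligands, a receptor and feedback genes of the pathway. Wnt3, the ligand that starts the streak, measured 11.7 and 10.95 TPM in the pair and 0.81 to 2.65 TPM in the others. Wnt5b and Wnt7a, which encode other WNT ligands, differed by 1.85 and 2.03 on the log2 scale. Rspo3, a secreted protein that raises the cell's response to WNT, differed by 2.19, and Fzd10, a WNT receptor, by 1.85. Axin2, a feedback inhibitor and a common reporter of β-catenin activity, measured 31.3 and 28.1 TPM in the pair, 4.83 and 5.38 TPM in replicates 1 and 4, and 12.8 and 10.1 TPM in replicates 3 and 6. Lef1, a nuclear partner of β-catenin, differed by 1.21. In each of these 10 genes called higher, replicates 1 and 4 were lowest, replicates 3 and 6 were between, and the pair was highest, with no overlap between these steps. That order held for 108 of all 199 genes called higher, and in 36 others replicates 3 and 6 were the lowest.

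Not every WNT gene moved that way. Sfrp1, a secreted WNT inhibitor, measured 7.17 and 8.22 TPM in the pair and 10.3 to 31.9 TPM in the others. Rnf43, an inhibitor that removes WNT receptors from the membrane, and Rspo1, a relative of Rspo3, were called lower as well, at -1.22 and -1.30. Tcf7l1, a TCF factor that represses its targets in pluripotent cells, measured 26.3 and 29.7 TPM in the pair, 66.6 and 58.7 TPM in replicates 1 and 4, and 29.2 and 25.2 TPM in replicates 3 and 6. The pair was thus like replicates 3 and 6 in this gene. The receptor gene Lrp6 and the TCF factor gene Tcf7 differed by -0.25 and -0.31, lower without overlap but within 2-fold.

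Primitive streak genes were among the most extreme members of the higher side. T (brachyury, ENSMUSG00000062327.10, chromosome 17 from 8434423 to 8442496, plus strand), the defining transcription factor of the streak, measured 110.5 and 66.2 TPM in replicates 2 and 5. It measured 0.94, 8.17, 0.97 and 9.13 TPM in replicates 1, 3, 4 and 6, and 3.45 to 8.60 TPM in WT. The sides differed by 4.32 on the log2 scale, and replicates 1 and 4 were below every WT sample. Eomes, a T-box factor of streak and early endoderm, measured 80.8 and 67.9 TPM against 7.02, 14.99, 7.44 and 15.5 TPM in replicates 1, 3, 4 and 6. Nkx1-2, a homeobox gene of the posterior embryo, measured 3.39 and 2.77 TPM against 0 to 0.17 TPM, and HM had 0.62 to 3.2 TPM. Of 23 listed streak and mesoderm genes only 8 passed the filter, with a median of 0.50. T, Eomes and Nkx1-2 were called higher, against 1.46% of all genes, and none lower. The 15 that did not pass, which include later mesoderm factors, stayed under a mean of 1 TPM in HetKO.

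Promoters are shown for genes of this set in which the TCF/LEF word CTTTGAT or CTTTGAA, read on either strand, falls within 250 bases before the annotated start, with the word in capitals. They are given so that the upstream sequence of leading WNT and streak genes can be seen beside their levels. The sequences are from RefSeq on GRCm38.p6, read along the strand of the gene, for T (chr17:8434173-8434422, plus strand), Sp5 (chr2:70474673-70474922, plus strand), Sp8 (chr12:118846983-118847232, plus strand) and Wnt5b (chr6:119449387-119449636, minus strand).
T: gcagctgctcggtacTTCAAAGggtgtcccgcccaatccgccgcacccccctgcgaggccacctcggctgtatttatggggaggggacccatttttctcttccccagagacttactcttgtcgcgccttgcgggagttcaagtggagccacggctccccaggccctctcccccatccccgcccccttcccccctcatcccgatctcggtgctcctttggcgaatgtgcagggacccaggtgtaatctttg
Sp5: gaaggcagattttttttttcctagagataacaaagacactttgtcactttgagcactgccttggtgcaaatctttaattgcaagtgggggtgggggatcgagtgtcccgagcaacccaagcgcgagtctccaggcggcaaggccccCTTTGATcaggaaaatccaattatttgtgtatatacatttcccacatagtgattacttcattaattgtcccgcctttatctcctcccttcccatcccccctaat
Sp8: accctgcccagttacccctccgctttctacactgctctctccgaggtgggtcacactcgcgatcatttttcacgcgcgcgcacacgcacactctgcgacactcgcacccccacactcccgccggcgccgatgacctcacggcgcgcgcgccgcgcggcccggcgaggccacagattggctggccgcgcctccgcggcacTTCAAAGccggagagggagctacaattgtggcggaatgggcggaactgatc
Wnt5b: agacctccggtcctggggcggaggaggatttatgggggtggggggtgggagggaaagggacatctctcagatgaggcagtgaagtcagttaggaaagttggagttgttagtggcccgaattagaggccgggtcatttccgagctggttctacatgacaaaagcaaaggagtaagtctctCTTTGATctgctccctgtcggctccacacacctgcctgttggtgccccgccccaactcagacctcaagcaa

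The word was counted in windows from 250 bases before to 50 bases after each start. It occurred in 9.88% of the 27025 genes with a window and in 6.81% of the compared genes with one. Among genes called higher 14 of 112 with a window held it (12.5%), and among genes called lower 31 of 480 (6.46%). Of the WNT list 5 of 33 genes with a window held it (15.2%). A match is a description of these letters in this window and is not evidence of binding.

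**Figure D2:**
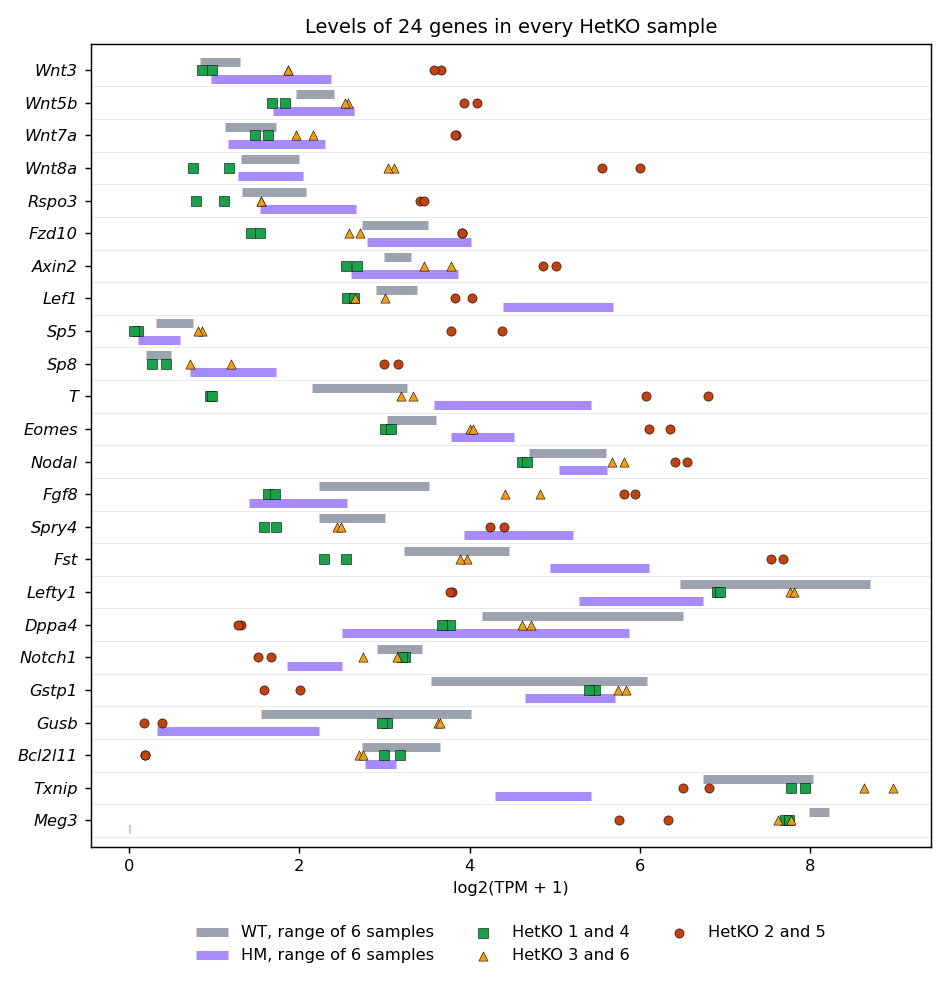
Levels of 24 genes, 1 per row, on a log2(TPM + 1) axis. Squares mark HetKO replicates 1 and 4, triangles replicates 3 and 6, and circles replicates 2 and 5, while the upper grey and lower violet bars span the 6 WT and the 6 HM samples. In the WNT, streak and Fgf8 rows the circles lie to the right and the squares to the left, as for T at 66.2 and 110.5 TPM against 0.94 and 0.97 TPM.

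Genes of the Nodal, FGF and BMP pathways lay on both sides. Nodal, the TGFβ-family ligand of the streak, measured 92.7 and 84.1 TPM in the pair, 23.6 and 24.6 TPM in replicates 1 and 4, and 55.1 TPM in replicate 6 with replicate 3 close to it. Its antagonist Lefty1 (ENSMUSG00000038793.8, chromosome 1 from 180935022 to 180938400, plus strand) went the other way. Lefty1 measured 12.9 and 12.7 TPM in the pair and 119, 215, 122 and 222 TPM in replicates 1, 3, 4 and 6, below all 16 other samples, WT (87.9 to 416 TPM) and HM (37.8 to 106 TPM) included. Lefty2, its close relative, was also called lower at -1.04. Of the Nodal list 17 of 20 genes passed the filter, with 1 called higher and 2 lower. Without overlap 3 lay above the other samples and 6 below, and the list median was -0.02. Of all 13654 genes 3262 lay above and 4826 below without overlap, so these counts do not set the Nodal list apart.

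Some feedback genes of the FGF and ERK pathway were called higher. Spry4 and Spry2, intracellular inhibitors that ERK signalling switches on, differed by 2.26 and 2.10. Spry4 measured 20.2 and 17.9 TPM in the pair against 2.32, 4.46, 2.00 and 4.60 TPM in replicates 1, 3, 4 and 6. Dusp6, an ERK phosphatase, and Etv1, an ETS factor of the pathway, differed by 1.43 and 1.45. Fgf4, an FGF ligand of pluripotent cells, was called lower, at 1.28 and 1.69 TPM in the pair against 5.01 to 5.66 TPM. Of 28 listed genes 21 passed the filter, and their median was 0.44. Of these, 5 were called higher against 1.46% of all genes, and 1 lower against 4.81%. Without overlap 12 lay above the other samples and 4 below, the latter being Fgf4, Fgf5, Fgf15 and Fgfr3. The feedback gene Spry1 differed by 0.05, with overlap.

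Follistatin (Fst, ENSMUSG00000021765.9, chromosome 13 from 114452290 to 114458951, minus strand), a secreted inhibitor of activins and some BMPs, had the largest difference of any gene over 200 bases in length. It measured 204 and 185 TPM in replicates 2 and 5 and 4.85, 14.7, 3.91 and 13.8 TPM in replicates 1, 3, 4 and 6. The pair stood far above WT (8.41 to 21.0 TPM) and also above HM (29.9 to 67.8 TPM). The BMP target genes Id1, Id2 and Id3, inhibitors of helix-loop-helix factors, were called higher by 1.58, 1.23 and 1.71. In all 4 of 15 BMP pathway genes were called higher, against 1.46% of all genes, and none lower. Without overlap 7 of the 15 lay above the other samples and 6 below, where 3262 and 4826 of all 13654 genes did so. The median of the BMP list was -0.10, and it became 0.01 after centring.

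The remaining genes that led the higher side belong to no single pathway. Foxb1, a forkhead factor of neural progenitors, measured 10.7 and 11.3 TPM in the pair and 0.05 to 0.37 TPM in the others. Sall3, a zinc finger factor related to Sall4, measured 33.6 and 29.3 TPM against 2.32 to 3.51 TPM. Tdh, the threonine dehydrogenase characteristic of mouse pluripotent cells, measured 24.9 and 22.7 TPM against 0.75 to 7.67 TPM, and HM had 3.83 to 48.3 TPM. Rab38, a small GTPase of lysosome-related organelles, differed by 3.05, the secreted protein gene Ism2 by 3.04 and the zinc finger gene Zfp428 by 2.43. Mir8094 had the largest value at 5.32, but its transcript is 117 bases long and its TPM in the others was 0, 0, 0 and 93.7, with 121 and 126 in the pair. Of the genes called higher 7 were under 200 bases in length, and 3 of those called lower.

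Some growth and stress genes were called higher. The median of 31 genes linked to Atf4, the transcription factor of the amino acid stress response, was 0.35. Of these, 6 were called higher, against 1.46% of all genes, and none lower. They were Atf4 itself, Trib3, Sesn2, Slc7a1, Stc2 and Cebpb, and all 6 followed the order of replicates 1 and 4, then 3 and 6, then 2 and 5. Trib3, a pseudokinase that restrains AKT and ATF4, measured 55.3 and 52.4 TPM in the pair, 4.36 and 5.10 TPM in replicates 1 and 4, and 46.7 and 37.1 TPM in replicates 3 and 6. Replicates 3 and 6 were thus close to the pair in this gene, unlike in T or Wnt8a. The mean of the Atf4 list relative to its WT mean was 0.38 and 0.34 in replicates 2 and 5. It was 0.39 and 0.14 in replicates 3 and 6, and -0.55 and -0.49 in replicates 1 and 4. In WT it ran from -0.39 to 0.30 and in HM from -0.18 to 0.41, so the list did not set the pair apart. Of the G1 to S regulators 4 of 29 were called higher, against 1.46% of all genes, and none lower, but the list median was 0.02. Without overlap 13 lay above the other samples and 9 below, where 3262 and 4826 of all 13654 genes did so. Ccnd2, cyclin D2, measured 69.3 and 67.3 TPM in the pair against 11.96, 33.3, 14.2 and 31.9 TPM in replicates 1, 3, 4 and 6. Ccnd1, Ccne2 and the inhibitor gene Cdkn1a were the other 3. Myc and Egr1 were higher by 1.75 and 1.81 and Arc lower by 1.07 among 18 immediate early genes.

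The lower side held more genes and its lists moved with less extreme values. Tspan6 (ENSMUSG00000067377.12, chromosome X from 133891068 to 133898429, minus strand), a tetraspanin membrane protein gene, was the most reduced. It measured 0.22 and 0.29 TPM in replicates 2 and 5 and 26.1, 18.1, 29.1 and 17.8 TPM in replicates 1, 3, 4 and 6, a difference of -4.21. WT samples had 6.63 to 17.3 TPM and HM samples 19.7 to 32.3 TPM. Tspan6 was thus near 0 in these 2 samples and in no other sample of the 18.

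Lysosomal genes were lower almost without exception in direction. This list, the glutathione list and the FOXO list were drawn up after the leading genes had been seen, so their counts describe the pattern that prompted them. Of 44 lysosomal enzyme and membrane protein genes that passed the filter 39 lay below the other 4 samples without overlap and 1 above. The median was -0.56, and 11 genes were called lower and none higher. Among all 13654 genes 4826 lay below without overlap and 3262 above, and 4.81% were called lower. Gusb, the enzyme β-glucuronidase, measured 0.13 and 0.31 TPM in the pair and 7.19, 11.4, 6.82 and 11.6 TPM in replicates 1, 3, 4 and 6. Ctsf, the protease cathepsin F, measured 0.27 and 0 TPM against 4.20 to 10.9 TPM. HM samples also reached low levels, with Gusb at 0.26 to 3.68 TPM and Ctsf at 0.31 to 5.36 TPM. In WT replicates 1 and 4 Gusb was at 15.2 and 14.05 TPM and Ctsf at 7.95 and 7.61 TPM. In the rest of WT Gusb was at 1.92 to 2.94 TPM and Ctsf at 1.14 to 2.22 TPM. HetKO replicates 1, 3, 4 and 6 were thus above most WT samples in both genes, and the pair was below all. Hexa, a subunit of β-hexosaminidase, measured 0.04 and 0 TPM against 2.65 to 6.15 TPM, while WT had 17.6 to 20.1 TPM. Neu1, Manba and Naglu, which break down sugar chains, were called lower by 1.06 to 1.49. In 10 of the 11 genes called lower the order was replicates 2 and 5, then 1 and 4, then 3 and 6. Tfe3, a transcription factor for lysosomal genes, was the 1 member above the others, at 0.36.

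The E-box word TCACGTG, which factors of the TFEB and TFE3 family can bind, was counted in the same windows on both strands. It occurred in 4.29% of all genes with a window, in 7.24% of the compared genes and in 11 of 37 lysosomal genes (29.7%), and in 6.67% of the genes called lower. The upstream 250 bases of Naglu, the enzyme N-acetyl-glucosaminidase (chr11:101069844-101070093, plus strand), and Mcoln1, the calcium channel of lysosomes (chr8:3500269-3500518, plus strand), show it in capitals. In Mcoln1 the word occurs 3 times when both strands are counted, and 2 of these overlap. Naglu was called lower at -1.06, while Mcoln1, at 53.9 and 49.9 TPM against 80.1 to 125 TPM, was lower without overlap but by less than 2-fold.
Naglu: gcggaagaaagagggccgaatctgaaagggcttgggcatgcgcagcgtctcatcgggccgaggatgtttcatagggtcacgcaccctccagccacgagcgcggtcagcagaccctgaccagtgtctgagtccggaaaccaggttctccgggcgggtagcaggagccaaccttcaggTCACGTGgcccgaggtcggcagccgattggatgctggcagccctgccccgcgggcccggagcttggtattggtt
Mcoln1: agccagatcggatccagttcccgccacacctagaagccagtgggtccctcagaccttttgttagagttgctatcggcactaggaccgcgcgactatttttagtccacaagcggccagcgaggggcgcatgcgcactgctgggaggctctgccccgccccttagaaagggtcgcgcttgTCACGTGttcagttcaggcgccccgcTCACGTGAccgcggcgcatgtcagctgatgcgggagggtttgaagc

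Glutathione and antioxidant genes divided. Of 32 that passed the filter 8 were called lower and none higher, against 4.81% and 1.46% of all genes. Without overlap 7 lay above the other samples and 15 below, where 3262 and 4826 of all 13654 genes did so. Gstp1 (ENSMUSG00000060803.6, chromosome 19 from 4035407 to 4037985, minus strand), a glutathione S-transferase, measured 2.01 and 3.04 TPM in the pair and 43.4, 52.4, 41.2 and 55.9 TPM in replicates 1, 3, 4 and 6. WT had 50.5 and 66.5 TPM in replicates 1 and 4 and 10.7 to 14.05 TPM in the rest. HetKO replicates 1, 3, 4 and 6 thus lay above most WT samples in this gene, while the pair lay below all of them. The neighbouring copy Gstp2 is closely similar, so reads could be split between them, and it was called lower too at -1.15. Gpx3, a secreted glutathione peroxidase, measured 0.05 and 0.11 TPM against 5.52 to 7.89 TPM, and HM had 0.35 to 5.14 TPM. WT had 24.2 and 25.1 TPM of Gpx3 in replicates 1 and 4 and 2.35 to 3.15 TPM in the rest. Gstm5, Gpx7 and Gstt1 were lower by 2.89, 2.44 and 2.14 on the log2 scale. WT replicates 2, 3, 5 and 6 had at most 2.11 TPM of Gstm5 and 1.48 TPM of Gpx7. HetKO replicates 1, 3, 4 and 6 were above these WT samples in both genes.

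Genes linked to FOXO factors, which insulin and AKT signalling keep out of the nucleus, were lower as a list. Of 16 that passed 15 lay below the other samples without overlap, 7 were called lower and the median was -0.86. Among all 13654 genes 4826 lay below without overlap, and 4.81% were called lower. Bcl2l11 (ENSMUSG00000027381.16, chromosome 2 from 128126038 to 128162547, plus strand), which encodes the pro-apoptotic protein BIM, measured 0.14 TPM in both samples of the pair and 8.06, 5.49, 6.99 and 5.74 TPM in replicates 1, 3, 4 and 6. WT had 5.68 to 11.6 TPM and HM 5.85 to 7.78 TPM, so the near absence of Bcl2l11 was seen in these 2 samples and in none of the other 16. Trp53inp1, a stress protein gene that p53 also controls, measured 2.87 and 3.26 TPM against 19.7 to 24.3 TPM. Txnip, an inhibitor of thioredoxin and glucose uptake, measured 111 and 89.6 TPM against 218 to 501 TPM. Among 23 p53 target genes 4 were called lower and 3 higher, against 4.81% and 1.46% of all genes. Cdkn1a, Pmaip1 and Sesn2 were those called higher, and the list median was -0.35.

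Some Notch and cell surface genes were called lower too. Of 16 Notch pathway genes 5 were called lower, against 4.81% of all genes, and none higher, with a median of -0.58. Notch1, the receptor, measured 1.85 and 2.17 TPM against 5.72 to 8.48 TPM, and its ligands Dll1 and Dll3 differed by -1.43 and -1.08. Hes7, a Notch-driven oscillating repressor, and Mfng, an enzyme that modifies the receptor, differed by -1.81 and -1.71. Among 23 epithelial and mesenchymal genes 6 were called lower, of which Thy1 measured 6.25 and 6.45 TPM against 24.1 to 27.1 TPM and Krt18, a keratin, 6.01 and 6.57 TPM against 21.6 to 25.7 TPM. Cdh3, P-cadherin, measured 1.55 and 1.49 TPM against 14.6 to 20.2 TPM. Cdh1, E-cadherin, at 18.1 and 17.8 TPM against 33.2 to 40.8 TPM, missed the 2-fold limit.

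Other leading genes on the lower side act in several processes. Sycp3 and Rec8 encode meiotic chromosome proteins and differed by -3.05 and -2.64. Capg, an actin capping protein gene, measured 0.52 and 0.29 TPM against 7.90 to 10.04 TPM, and Car12, a carbonic anhydrase gene, 0.04 and 0 TPM against 3.62 to 9.05 TPM. Car12 was also low in HM, at 0.02 to 0.31 TPM, and lay at 0.45 to 3.47 TPM in WT. Apobec3, a cytidine deaminase gene of antiviral defence, measured 0.30 and 0.19 TPM against 6.75 to 7.45 TPM. Dppa4, a chromatin protein gene of pluripotent cells, measured 1.49 and 1.44 TPM against 11.8 to 25.3 TPM, and its partner Dppa2 differed by -1.29. In the naive pluripotency list 2 of 12 genes were called lower, these partners, and 3 higher, namely Tdh, Gbx2 and Klf2.

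Imprinted genes moved in both directions. In the Dlk1-Dio3 cluster 3 of 6 genes passed the filter, and Rian, another noncoding RNA of the cluster, measured 113 and 110.4 TPM in the pair against 289 to 362 TPM. Mirg measured 6.60 and 7.42 TPM against 12.2 to 15.6 TPM, lower without overlap but within 2-fold. Peg10, a paternally expressed gene derived from a retrotransposon, measured 299 and 295 TPM in the pair against 61.0 to 81.6 TPM, and Magel2 differed by 1.13. WT had 105 to 156 TPM of Peg10, above HetKO replicates 1, 3, 4 and 6, and HM had 162 to 325 TPM, which overlaps the pair. Igf2, a fetal growth factor, and its neighbour H19 were called lower by 1.03 and 1.02 on the log2 scale. Of 21 other imprinted genes these were the 2 called higher and the 2 called lower, against 1.46% and 4.81% of all genes.

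Some sterol synthesis genes were called lower. Of 33 cholesterol and fatty acid genes 24 lay below without overlap, where 4826 of all 13654 genes did so. Of the 33, 4 were called lower and none higher, with a median of -0.46. Those called were Msmo1, Cyp51, Mvd and Lss, enzymes of the cholesterol pathway, at -1.28 to -1.08. The mean of the list relative to its WT mean was -0.36 and -0.35 in the pair and 0.02 to 0.18 in the other HetKO samples. It ran from -0.23 to 0.15 in WT and from -0.36 to 0.07 in HM, so some HM samples were as low as the pair. Among other lists, 2 of 26 collagen and basement membrane genes, 3 of 32 glycolysis and hypoxia genes, 2 of 13 retinoic acid genes, 2 of 15 interferon genes and 1 of 26 mitosis genes were called lower, with 1 glycolysis and hypoxia gene, Adm, called higher. These are counts of 1 to 3 genes, to be read against the 4.81% of all genes called lower.

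Several groups of housekeeping and pluripotency genes held no called member. Only 6.27% of all genes were called, and 2.66% of those at 20 to 100 TPM and 1.32% of those at 100 TPM or more, so a list of this size can hold none at that background. None of 20 core and primed pluripotency genes was called, with a median of 0.07. None of 75 cytosolic ribosomal protein genes was called, and 63 lay below without overlap, where 4826 of all 13654 genes did so. The ribosomal median was -0.15, and it became -0.04 after centring and -0.09 after quantile normalization. None was called among 47 nuclear oxidative phosphorylation genes, 13 mitochondrially encoded mRNAs, 18 endoplasmic reticulum chaperones, 14 heat shock genes or 24 genes of the miRNA machinery. The median of the oxidative phosphorylation list was 0.07 and became -0.04 after quantile normalization. In all, 38 lists had a median and it changed sign with the scaling in 4, the other 2 being the Nodal and retinoic acid lists.

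**Figure D3:**
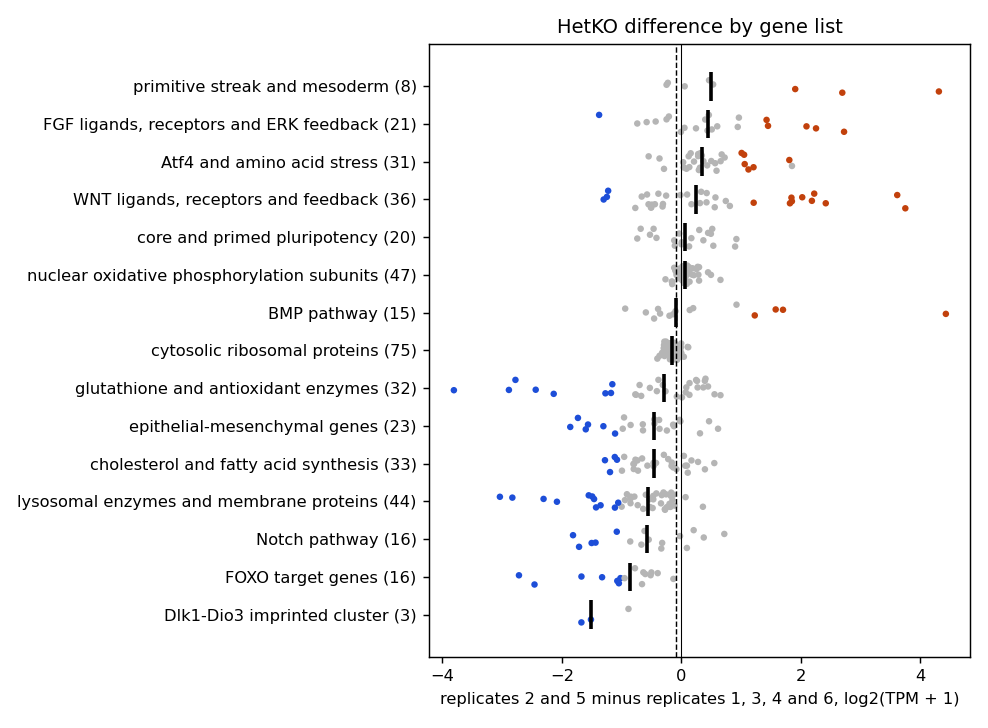
Each point is a gene that passed the filter, placed by the difference in log2(TPM + 1) between HetKO replicates 2 and 5 and the other 4, with its list on the vertical axis and the number of genes in brackets. Orange and blue mark genes called higher and lower, black bars are list medians and the dashed line is the median of all genes at -0.08. The WNT list spans from -1.30 to 3.75, while 39 of 44 lysosomal genes and 15 of 16 FOXO-linked genes lie below the other samples without overlap.

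Markers of other cell types were examined because a change in the mixture of cells and a change in RNA per cell cannot be told apart in bulk samples. None of 4 endoderm genes that passed was called, and summed over the list's 18 members their level was 159 to 165 TPM in the pair and 246 to 304 TPM in the others, with Hnf4a, Afp and Ttr at 0. Most of that sum was Apoe, a lipoprotein gene that many cell types use, at 148 and 153 TPM in the pair against 231 to 290 TPM. Streak and mesoderm markers summed to 164 to 223 TPM in the pair against 25.4 to 53.3 TPM in the others, with Msgn1 at 0. Neuron markers summed to 126 to 127 TPM against 166 to 205 TPM, with Syp, Syt1 and Map2 called lower and Dcx higher of 14. Muscle and heart markers summed to 31.1 to 36.7 TPM against 40.0 to 58.1 TPM with Myog and Myf6 at 0, and 1 of 4 was called lower. Fibroblast and blood markers summed to 12.2 to 12.9 TPM against 42.2 to 44.2 TPM with Adgre1 and Hbb-bs at 0, and 2 of 6, Thy1 and Col1a2, were called lower. Trophoblast markers summed to 20.6 to 22.6 TPM against 15.4 to 18.0 TPM with Prl3d1 and Tpbpa at 0, and 1 of 3 was called lower. Germline markers summed to 4.50 to 5.00 TPM against 17.7 to 27.1 TPM, with 1 of 4, Sycp3, called lower. No gene of the two-cell-like list passed, and 10 of its 12 were at 0 in all HetKO samples. Of 6 neural patterning genes 1 was called higher, and of 2 Hox genes 1 was called lower. Beside these counts, 1.46% of all genes were called higher and 4.81% lower. The part of these markers in the result was not tested.

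Chromosome 19 stood apart in the position of the genes. Its 456 compared genes had a median difference of 0.22, while the medians of the other chromosomes ran from -0.12 to -0.03. On chromosome 19 69.5% of genes were higher in the pair against 42.0% elsewhere, and 227 were higher and 72 lower without overlap. The median level of its genes relative to WT, minus that of all other chromosomes, was 0.24 in replicate 2 and 0.23 in replicate 5, and between -0.07 and -0.05 in the other 4 HetKO samples. WT samples ran from -0.04 to 0.09 and HM samples from -0.06 to 0.08, so the pair lay above all 16 others. The shift was a small one over many genes and not one of extremes, since 10 genes of chromosome 19 were called higher and 10 lower (4.39% called). Fgf8 lies on this chromosome, and so do Gstp1 and Ctsf, which were lower. Without chromosome 19, a setting added after the values were seen, 189 genes were called higher and 647 lower. Among windows of 20 Mb the most shifted was chromosome 15 from 100 to 120 Mb, where 50 genes had a median of -0.47 and 82.0% were lower.

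**Figure D4:**
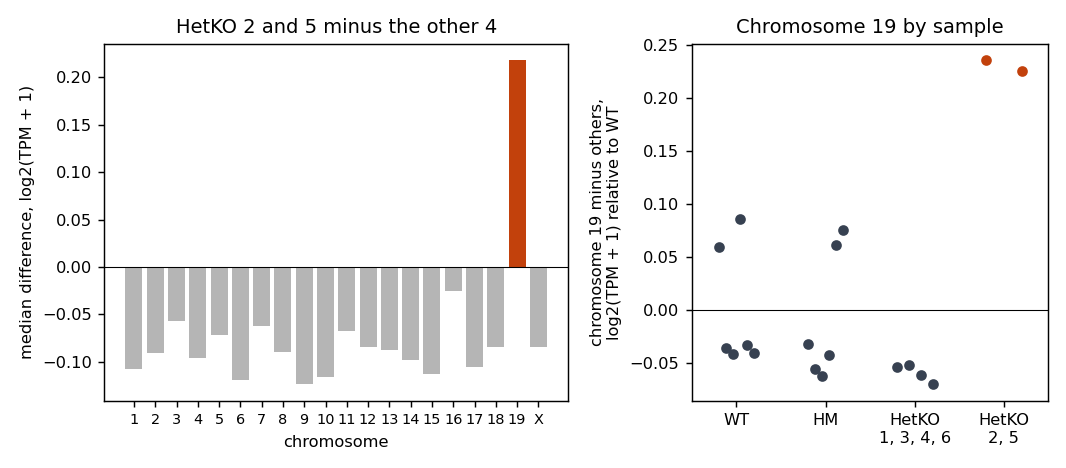
Left, the median difference in log2(TPM + 1) between HetKO replicates 2 and 5 and the other 4 for the genes of each chromosome, as bars from 0. Right, the median log2(TPM + 1) relative to WT of chromosome 19 genes minus that of all other chromosomes, with 1 point per sample. Chromosome 19 is the one bar above 0, at 0.22, and replicates 2 and 5 lie at 0.24 and 0.23 above all other samples.

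The genes that separated the HetKO samples were then looked up between HM and WT, lines whose samples the division did not use. HM and WT were compared with limma on log2(TPM + 1), keeping genes that averaged 1 TPM or more, at a Benjamini-Hochberg adjusted p under 0.05. Alike pairs also occurred in WT and HM. In Lefty1 the WT pairs carried the same numbers as those of HetKO. Lefty1 was at 91.6 and 87.9 TPM in WT replicates 1 and 4 and at 273 and 282 TPM in 2 and 5. In WT replicates 3 and 6 it was at 393 and 416 TPM. The HM pairs were numbered differently in part, with 106 and 103 TPM in HM replicates 2 and 3. HM replicates 5 and 6 were at 37.8 and 39.35 TPM. The fit counts 6 independent samples per line, so its p-values are too small if alike samples share a culture. Pair means were not run for HM. The background was broad, since 19.4% of 14043 genes were higher and 32.0% lower in HM. Of the 199 genes called higher in the pair 184 entered this fit, of which 97 were higher in HM and 7 lower. Their median change was 0.58 on the log2 scale. Of the 657 called lower 642 entered, of which 15 were higher in HM and 452 lower. Their median change was -0.82. The median over all genes in the fit was -0.09. Counted over all members, 48.7% of the first set were higher against 19.4% in the background, and 68.8% of the second were lower against 32.0%. After quantile normalization the counts were 106 higher and 6 lower, and 22 higher and 398 lower.

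Levels by sample showed the same in another form. The mean of the 199 genes relative to their WT mean was 1.49 and 1.44 in replicates 2 and 5, -0.25 and -0.28 in replicates 1 and 4, and 0.10 and 0.04 in replicates 3 and 6. In HM it ran from 0.29 to 0.65 and in WT from -0.04 to 0.08. For the 657 genes it was -1.44 and -1.43 in the pair and -0.11 to -0.05 in the other 4 HetKO samples, against -1.03 to -0.54 in HM. WT replicates 2 and 5, which carry the same numbers as the pair, had the highest WT means of the 199 genes, at 0.05 and 0.08 against -0.04 to -0.02 in the other WT samples. They had the lowest WT means of the 657 genes, at -0.03 and -0.04. Fgf8 measured 10.5 and 9.93 TPM in them against 3.70 to 5.04 TPM, and T 8.2 and 8.60 TPM against 3.45 to 5.40 TPM. These WT differences were far smaller than those in HetKO, and whether equal numbers mark a shared culture or sequencing run was not given in the labels. The part of the replicate number in the division was not tested. The HetKO values restate the choice of genes, and the HM values do not. The same genes were also more variable within WT and within HM, with a median SD of 0.25 and 0.37 for those called higher and 0.24 and 0.37 for those called lower, against 0.16 and 0.21 over all genes. Their levels were also lower, at a median of 10.2 and 5.50 TPM over the HetKO samples against 16.7 TPM.

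**Figure D5:**
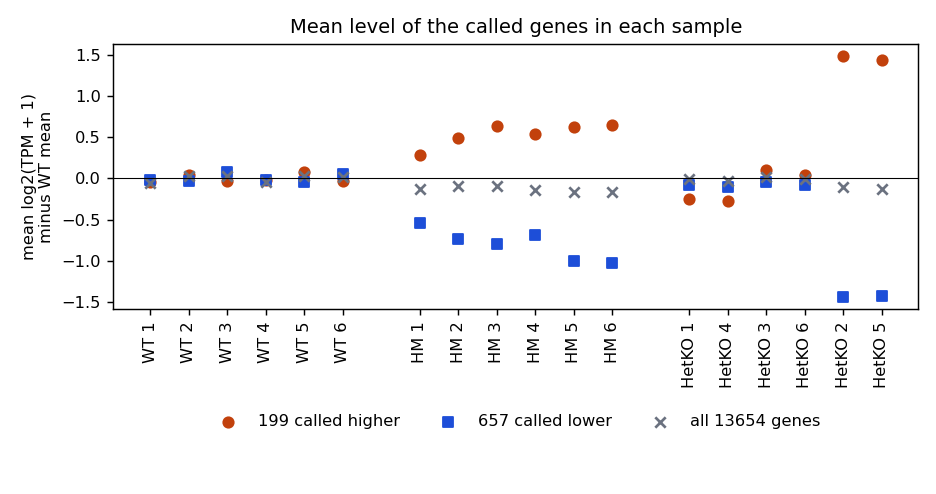
Mean log2(TPM + 1) relative to the WT mean in each of the 18 samples, for the 199 genes called higher (circles), the 657 called lower (squares) and all 13654 genes (crosses). HetKO replicates 2 and 5 sit near 1.5 and -1.4 because the genes were chosen there, and all 6 HM samples show positive means from 0.29 to 0.65 for the first set and negative means from -1.03 to -0.54 for the second.

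Single genes differed in whether HM followed the pair. Among the 15 leading genes of the higher side 11 entered the fit, 6 were higher in HM and 1 lower. Sp5, Foxb1, Ism2 and Sp8 did not enter, since they averaged under 1 TPM over the HM and WT samples. Their highest HM values were 0.52, 0.28, 1.95 and 2.3 TPM, below both samples of the pair. T was higher in HM by 1.80 (standard error 0.31, adjusted p = 0.000418 from limma) and Fst by 1.48 (standard error 0.24, adjusted p = 0.000288 from limma). Eomes, Spry4, Zfp428 and Sall3 were higher by 0.94, 1.99, 1.85 and 0.60. Fgf8 was the exception, lower in HM by 0.79 on the log2 scale (adjusted p = 0.0247 from limma), and Wnt8a had a log2 fold change of 0.04 (adjusted p = 0.828 from limma). Of the WNT list 4 of the 35 genes in the fit were higher in HM and 11 lower, and the lower share was near the 32.0% of all genes. The FGF and ERK list had 15 of 23 higher, Spry2 among them at 2.00, and 2 lower, where 19.4% of all genes were higher.

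Among the 15 leading genes of the lower side 14 entered, 6 were lower in HM and 1 higher. Apobec3 and Rec8 were lower by 2.70 and 2.35 on the log2 scale, Cdh3 by 1.74, Lefty1 by 1.63, Gusb by 1.46 and Gstm5 by 1.24, the last with an adjusted p of 0.0491 from limma. Tspan6 was higher in HM by 1.03 (adjusted p = 0.00322 from limma). Bcl2l11, at -0.21, did not pass (adjusted p = 0.266 from limma). Of the lysosomal list 31 of 45 genes were lower in HM and 1 higher, with Hexa at -2.97, where 32.0% of all genes were lower. The FOXO-linked list had 11 of 17 lower and 1 higher, with Txnip at -2.75 and Trp53inp1 at -1.91. The Notch list had 6 of 17 lower, near the background of 32.0%, with Notch1 at -1.02. In the glutathione list 6 of 33 genes were lower in HM and 9 higher, against 32.0% and 19.4% of all genes.

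The pair also entered the comparison of HetKO with WT, which shares its WT samples with that of HM. With all 6 HetKO samples 1421 of 13999 genes passed (10.2%), and without replicates 2 and 5 the count was 1089 of 14087 (7.73%). The calls shared between both were 874, which is 61.5% of the first set and 80.3% of the second, all with the same direction. Of the genes that separated the pair, 7 of those called higher and 57 of those called lower passed with all 6 samples, and 17 and 79 without the pair. Since the pair was chosen from its values, the count without it describes how far the comparison rests on these samples and supports nothing further. Meg3 differed from WT by -0.95 on the log2 scale with all 6 samples and by -0.40 without the pair, and Fgf8 by 1.26 and 0.35. No test is given for either, because these genes chose the samples. With the 3 means of alike pairs (1 and 4, 2 and 5, 3 and 6) in place of the 6 samples, 35 genes passed.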

How the data were processed

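mRNA-seq of P19 WT, HetKO and HM cells (6 samples each) was used. Total RNA was extracted with TRIzol and made into stranded poly(A) libraries. Per the authors' methods, BBMerge joined the read pairs and RSEM quantified them, and the deposited unit is TPM with 2 decimals. The submitters' processing notes also name cutadapt, STAR and mm10. TPM keeps no read depth, so no counting interval was set and precision was taken from the spread between samples. No column was left unused. All 55450 gene identifiers matched the GENCODE M21 annotation of GRCm38.

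The members and gene lists were chosen with earlier results of these data known. Lysosomal, glutathione and FOXO lists, and the settings without chromosome 19 and without genes under 200 bases, were added after the values were seen. HetKO replicates 2 and 5 were compared with replicates 1, 3, 4 and 6 on log2(TPM + 1), with a pseudocount of 1, for genes that averaged 1 TPM or more. A call required a 2-fold difference and no overlap, with no test. HetKO and HM were each compared with WT by limma 3.58.1 in R 4.3.3 with a mean-variance trend, two-sided, at a Benjamini-Hochberg adjusted p of 0.05. The other steps were run in Python 3.11.15 with pandas 2.3.3 and numpy 2.4.6, and were tested on simulated data.

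Genes named by rule were Dicer1, Fgf8, Meg3, the 15 largest differences each way without model gene names, and the 3 most different members of each list. Other members of those lists, Gstp2, Mcoln1, Cdh1 and Tcf7l1 among them, were named after their values were seen. Replicate numbers come from the labels, which do not say that equal numbers share a culture or a run. Alternatives were centring, quantile normalization, a smaller pseudocount (0.1), a higher or no TPM filter, a 1.5-fold limit, no overlap condition, an unequal-variance test, a fit of all lines together, the replicate number as a block, pair means and each sample left out. Promoters came from RefSeq (GRCm38.p6). The miRNA libraries were not analysed here.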

Additional observations from a re-analysis of the deposited data

Results flagged for a closer look

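Each of the 32 leading genes was examined within the lines of 6 samples for a single sample far from the rest of its group. Of 96 groups 7 held one. A rate of 1 in 20 gives about 4.8, a figure that counts the HetKO groups too. Most of these genes were named because HetKO replicates 2 and 5 lay together apart from the others, so a single far HetKO sample was hardly possible. None of the flagged samples was a HetKO sample, and no conclusion is drawn from this. In HM, Meg3 was listed at 0.01 TPM in replicate 3 and at 0 in the other 5, and Mir8094, a gene of 117 bases, was at 303 TPM in replicate 1. Sp5 was at 0.52 TPM in HM replicate 2. HM replicate 4 was the far sample for Rab38 at 7.4 TPM, for Tdh at 48.3 TPM and for Ctsf at 5.36 TPM. Rab38 was also at 6.86 TPM in WT replicate 5.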

How the results depend on the processing

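The number of genes called in the HetKO pair depended on the scale. With a pseudocount of 0.1 it was 1372 in all and 1096 lower, with a filter of at least 5 TPM 506 in all and 364 lower, with quantile normalization 348 lower, and with a 1.5-fold limit 718 higher, 1956 lower and 2674 in all. Lower calls outnumbered higher calls under each of these. Leaving out each HetKO sample in turn gave 861 to 1003 called genes, the most without replicate 5. Without genes under 200 bases 192 were called higher and 654 lower. None of the called genes among the 122 named by rule changed direction between the sides under the alternatives run, and the cause of the moved counts was not tested.

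Between HetKO and WT the count was 852 with an unequal-variance test, 6500 with replicates 2 and 5 as the only HetKO samples, which were chosen from their values so that this count supports nothing, and 35 with pair means as replicates, where fewer samples enter. Leaving out each sample in turn gave 959 to 1518 genes there, and 6541 to 7361 between HM and WT.

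A block for the replicate number gave 1206 calls for HetKO and 6889 for HM, against 1421 and 7220 without it. Same-numbered samples deviated together with a mean correlation of 0.072 (-0.0028 to 0.21) for HetKO and -0.02 (-0.16 to 0.12) for HM, so the condition for pairing, a correlation over 0.1 in every pair, was not met. Whether equal numbers share a culture or run is not given in the labels. TPM holds no depth, which limits statements on genes near 0.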
